A study of Mus musculus with 199 samples.

Results

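The chemokine receptor CXCR2, its ligands and the receptors and ligand that steer neutrophil homing were followed in whole liver, in liver tumours and in sorted neutrophils of a mouse model of fatty liver cancer. The 8 genes were taken by name: the receptor genes *Cxcr1*, *Cxcr2* and *Cxcr4*, the CXCR2 ligand genes *Cxcl1*, *Cxcl2*, *Cxcl3* and *Cxcl5*, and the CXCR4 ligand gene *Cxcl12*. All 8 were found among the 37713 genes of the deposited count table. CXCR2 is the main receptor with which mouse neutrophils leave the bone marrow and move toward a site of inflammation. It binds chemokines that carry the amino acids Glu-Leu-Arg just before their paired cysteines, which epithelial cells, stroma, macrophages and neutrophils themselves can make after NF-kappa-B is activated. CXCR4 and CXCL12 act the other way: they hold neutrophils in the marrow, and CXCR4 is a known mark of aged neutrophils.

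The model, called DEN ALIOS, joins the liver carcinogen diethylnitrosamine with a Western-type obesity diet. All mice were labelled male wild type C57BL/6 from an in-house colony, with no age given. Whole tissue comprised 25 large tumours, 25 small tumours and 15 libraries of liver tissue. The liver tissue libraries are titled DEN ALIOS, but their treatment label reads Normal and the protocol speaks of healthy tissue, so a difference of tumours from this tissue and an effect of the model on the whole liver cannot be told apart if the tissue came from healthy mice. Ly6G+ cells, the surface mark of mouse neutrophils, were sorted to a stated purity of at least 97 percent from liver and blood of DEN ALIOS mice given the inhibitor CXCR2i with an antibody to the checkpoint receptor PD-1 (CXCR2i aPD1, here the combination; 8 liver and 10 blood libraries), CXCR2i (10 and 10), aPD1 (5 and 5) or neither (untreated; 6 and 7). The protocol names tumours as the source of the sorted cells where the titles say liver. Of the untreated libraries 1 liver and 2 blood ones carry a vehicle label, and 4 liver and 4 blood CXCR2i libraries carry an isotype label for aPD1. Liver and blood libraries of 29 mice came from the same animal by their labels. Tissue libraries name no animal, so some may share a mouse and their p-values measure the spread between these samples.

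Gene counts ran from 12055434 to 21850190 per library in tissue and from 580113 to 9256224 in neutrophils. The neutrophil genes *S100a8*, *S100a9*, *Ly6g*, *Csf3r*, *Retnlg*, *Mmp9*, *Mmp8*, *Il1r2* and *Cd177* summed to a median of 34420, 26240, 13880 and 19020 counts per 1000000 gene counts (CPM) in liver neutrophils of combination, CXCR2i, aPD1 and untreated mice, and to 30950, 29840, 32340 and 29050 CPM in blood neutrophils. In 2 of 5 aPD1 and 2 of 6 untreated liver libraries the T cell gene *Cd3e* reached 47.4 to 236 CPM (aPD1 liver replicates 2 and 4, untreated liver replicates 2 and 5), and 1 combination liver library (replicate 2) and 1 untreated blood library (replicate 1) held under 1000000 gene counts. These 6 are called mixed or shallow libraries below, and results are given without them where they differ. All untreated neutrophil libraries were sequenced in one set of runs and all aPD1 libraries in another, so aPD1 against untreated can be estimated only through the CXCR2i and combination groups, which span both.

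The ligand genes and the receptor genes are grouped in the genome. On GRCm38, *Cxcl5* (chr5:90759360-90761624), *Cxcl3* (chr5:90786103-90789600), *Cxcl1* (chr5:90891241-90893115) and *Cxcl2* (chr5:90903871-90905938) lie on the plus strand of chromosome 5. *Cxcr2* (chr1:74153989-74161246, plus strand) and *Cxcr1* (chr1:74191785-74194631, minus strand) are neighbours on chromosome 1, which also holds *Cxcr4* (chr1:128588199-128592293, minus strand). *Cxcl12* lies on chromosome 6 (chr6:117168535-117181367, plus strand). No annotated gene overlaps any of the 8. The coding stretches around the first Cys-X-Cys show what separates CXCR2 ligands from the CXCR4 ligand. They are printed 5′ to 3′ from the GENCODE vM21 transcripts, with the 3 codons before the first cysteine in capitals.
Cxcl1: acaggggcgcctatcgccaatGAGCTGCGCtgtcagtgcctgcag
Cxcl2: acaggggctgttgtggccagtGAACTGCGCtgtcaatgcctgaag
Cxcl3: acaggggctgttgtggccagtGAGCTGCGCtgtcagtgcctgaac
Cxcl5: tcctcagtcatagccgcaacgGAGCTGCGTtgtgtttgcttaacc
Cxcl12: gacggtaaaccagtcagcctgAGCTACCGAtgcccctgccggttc
The capitals encode Glu-Leu-Arg in *Cxcl1*, *Cxcl2*, *Cxcl3* and *Cxcl5* and another triplet in *Cxcl12*. *Cxcl1*, *Cxcl2* and *Cxcl3* are similar in sequence, and reads that aligned to more than one place were left out of gene counts, so their counts rest on the positions where they differ.

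*Cxcl1*, *Cxcl2* and *Cxcl3* also share a promoter feature. The 150 bases before each RefSeq gene start (GRCm38.p6, plus strand) are printed with the NF-kappa-B motif searched for, the same 10 letters in all 3, in capitals.
Cxcl1, chr5:90891095-90891244: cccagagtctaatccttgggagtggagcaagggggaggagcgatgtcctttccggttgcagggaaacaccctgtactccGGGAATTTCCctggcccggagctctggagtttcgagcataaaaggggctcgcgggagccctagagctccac
Cxcl2, chr5:90903749-90903898: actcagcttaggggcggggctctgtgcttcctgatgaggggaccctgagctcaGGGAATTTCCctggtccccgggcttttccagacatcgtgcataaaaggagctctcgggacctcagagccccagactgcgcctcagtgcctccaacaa
Cxcl3, chr5:90785951-90786100: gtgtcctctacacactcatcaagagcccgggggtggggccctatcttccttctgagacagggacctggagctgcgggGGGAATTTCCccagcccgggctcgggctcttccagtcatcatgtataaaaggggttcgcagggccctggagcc
The motif ends 62, 88 and 64 bases before the RefSeq gene start in *Cxcl1*, *Cxcl2* and *Cxcl3*. These starts differ from the gene positions given above. The printed stretches of *Cxcl1* and *Cxcl2* run past 90891241 and 90903871, and that of *Cxcl3* ends before 90786103. The distances are therefore not to be read against those positions. Searched on both strands from 250 bases before to 50 after the RefSeq start, the motif was found in 29 of 32851 mouse promoters (0.0883%). It was found in these 3 of the 7 members with an entry (*Cxcl5* had none). A wider form of it, with any base at the 2 places after the leading guanines, contains the first and was found in 535 promoters (1.63%) and in the same 3 members. The 3 genes are similar in sequence, so their matches are not 3 independent finds. A match is a description of the letters and not a measured binding site.

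Levels can be set against each other between genes only per length. The mean CPM per kb of exon is shown for each group in the map of levels.

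**Figure D1:**
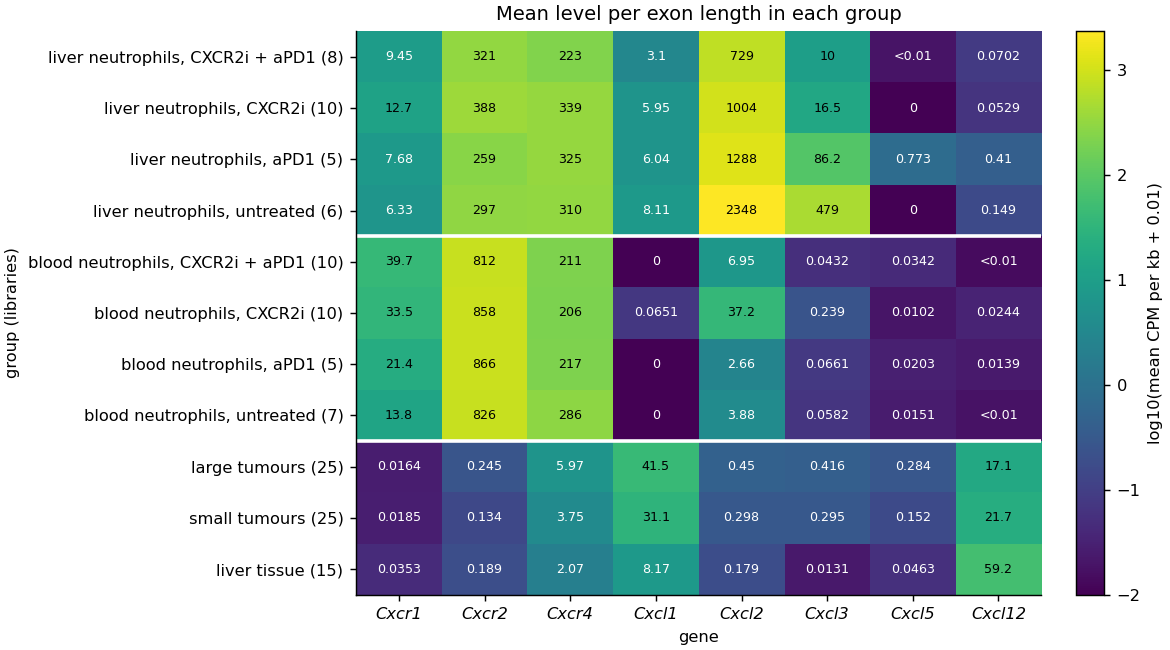
Mean CPM per kb of exon of the 8 genes (columns) in 11 groups (rows, number of libraries in parentheses). Colour is log10 of the mean plus 0.01 and the printed number is the mean. *Cxcr2* leads the receptors in every blood group, *Cxcl2* leads the ligands in every neutrophil group, *Cxcl1* leads the CXCR2 ligands in tissue, and *Cxcl12* is highest in liver tissue. Neutrophil and tissue libraries were made with different kits, so no test runs between them.

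Per kb, *Cxcr2* stood at 259 to 388 CPM in the 4 liver groups of neutrophils and at 812 to 866 CPM in the 4 blood groups. *Cxcr4* stood at 223 to 339 CPM per kb in liver and 206 to 286 in blood, and *Cxcr1* at 6.33 to 12.7 in liver and 13.8 to 39.7 in blood. In liver neutrophils of aPD1 mice the mean of *Cxcr4* (325 CPM per kb) stood above that of *Cxcr2* (259), and in untreated mice the 2 means were 310 and 297. In tissue *Cxcl1* was the highest member per kb in large tumours (41.5 CPM per kb, with *Cxcl12* at 17.1) and in small tumours (31.1 and 21.7), and *Cxcl12* was the highest in liver tissue (59.2, with *Cxcl1* at 8.17). These orders are descriptions of group means with no test.

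In whole tissue *Cxcl1* was the CXCR2 ligand gene that carried nearly all ligand counts, and it rose in tumours of both sizes while the CXCR4 ligand gene *Cxcl12* fell. *Cxcr4* and *Cxcl2* rose from low levels. *Cxcr1*, *Cxcr2*, *Cxcl3* and *Cxcl5* were too low to be tested. In bulk tissue, fewer cells of a type and less RNA per cell cannot be told apart. Of the 4 members tested, 3 rose and 1 fell in large tumours against liver tissue, where 70.5% of 14538 tested genes passed (38.5% higher and 32.1% lower). The same count held in small tumours, where 65.7% of genes passed (34.7% higher and 31% lower). All 4 tested members passing is read against that background, in which most genes pass. The median change of the 4 tested members was 1.51 and 0.89 on the log2 scale in large and small tumours, against 0.0471 and 0.027 for all genes tested.

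*Cxcl1*, the keratinocyte chemoattractant that recruits neutrophils in mouse liver injury, had a lowest, median and highest value of 9.79, 41.8 and 69.9 CPM in large tumours, 7.26, 28.4 and 86.1 CPM in small tumours and 3.48, 7.78 and 12.7 CPM in liver tissue. Means were 39.5 ± 16.4, 29.7 ± 16.5 and 7.79 ± 2.35 CPM (SD, n = 25, 25 and 15). The groups overlapped only at the low end of the tumours. The log2 change was 2.46 ± 0.24 in large tumours (SE, adjusted p = 4.09e-14) and 2.09 ± 0.23 in small tumours (adjusted p = 1.06e-11). Of all counts of the 4 CXCR2 ligand genes, with no correction for gene length, *Cxcl1* held 96.0% in large tumours, 96.6% in small tumours and 95.1% in liver tissue. The ligand sum had a median of 42.2, 28.7 and 8.17 CPM in large tumours, small tumours and liver tissue.

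*Cxcl2*, the chemokine also known as MIP-2, had a lowest, median and highest value of 0.117, 0.702 and 3.97 CPM in large tumours, 0.128, 0.527 and 1.07 CPM in small tumours and 0.0540, 0.359 and 0.662 CPM in liver tissue. The groups overlapped up to 0.662 CPM, and 13 of 25 large and 7 of 25 small tumours lay above every liver tissue library. It rose by 1.45 ± 0.30 on the log2 scale in large tumours (adjusted p = 1.86e-05) and by 0.85 ± 0.30 in small tumours (adjusted p = 0.0108). *Cxcl3*, a close relative of *Cxcl2*, was at 0 in 2 of 25 large tumours, 7 of 25 small tumours and 12 of 15 liver tissue libraries. Its highest values were 5.18 CPM in large tumours, 5.01 CPM in small tumours and 0.0679 CPM in liver tissue. *Cxcl5*, an epithelial CXCR2 ligand, reached at most 7.02, 1.44 and 0.204 CPM in large tumours, small tumours and liver tissue. One large tumour, replicate 18, held the highest *Cxcr2* (8.44 CPM), *Cxcl2* (3.97 CPM), *Cxcl3* and *Cxcl5* values of its group, with *S100a8* at 11.6 CPM.

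*Cxcl12*, which retains CXCR4-bearing cells, fell. Its lowest, median and highest values were 50.1, 116 and 248 CPM in large tumours, 53.1, 133 and 375 CPM in small tumours and 296, 434 and 509 CPM in liver tissue. All 25 large tumours lay below all 15 liver tissue libraries, and so did 24 of 25 small tumours. The log2 change was -1.83 ± 0.16 in large tumours (adjusted p = 1.81e-15) and -1.49 ± 0.16 in small tumours (adjusted p = 5.66e-12). Markers of the cells that can make it did not move as one list. Of 8 stellate cell and fibroblast genes 4 rose and 2 fell in large tumours (*Col1a1* 1.93 ± 0.30, *Lrat* -1.33 ± 0.24), and of 8 endothelial genes 3 rose and 2 fell (*Emcn* 1.31 ± 0.23, *Clec4g* -1.08 ± 0.20). Their part in the fall of *Cxcl12* was not tested.

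*Cxcr4*, the receptor of CXCL12 on neutrophils, lymphocytes and other cells, had a lowest, median and highest value of 2.92, 7.43 and 56.3 CPM in large tumours, 1.62, 4.11 and 57.2 CPM in small tumours and 0.987, 3.33 and 6.48 CPM in liver tissue. It rose by 1.57 ± 0.34 in large tumours (adjusted p = 4.08e-05), and the change was 1.39 ± 0.32 without large tumour 13, which held the highest value. In small tumours the rise of 0.93 ± 0.32 (adjusted p = 0.00917) rested on small tumour 14: without it the change was 0.52 ± 0.26 (adjusted p = 0.0737), and without the libraries of tissue run 2 it was 0.29 (0.35). The 7 tested T and NK cell genes all rose in large tumours (*Cd8a* 1.11 ± 0.35, *Cd3d* 1.04 ± 0.34), and none of them passed in small tumours. Their summed median was 8.51 CPM in large tumours, 7.78 CPM in small tumours and 6.52 CPM in liver tissue. Their part in the rise of *Cxcr4* was not tested.

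*Cxcr2* itself was low in most tissue libraries, with large tumour 18 (8.44 CPM) the highest. Its median was 0.457 CPM in large tumours, 0.394 CPM in small tumours and 0.410 CPM in liver tissue, and *Cxcr1* never passed 0.199 CPM. The 9 summed neutrophil genes had medians of 11.8 CPM in large tumours, 10.7 CPM in small tumours and 14.6 CPM in liver tissue. Of the 4 neutrophil genes tested, none passed in large tumours (*Mmp9* -0.65 ± 0.32, adjusted p = 0.0645) and all 4 fell in small tumours. In liver tissue, 3 libraries (replicates 4, 5 and 6) held 18.4 to 21.6 CPM of *S100a8*. Without these and large tumour 18, *Cxcl1* still rose by 2.33 ± 0.26 in large and 2.00 ± 0.26 in small tumours. The part of neutrophil content in the rise of *Cxcl1* was not tested.

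**Figure D2:**
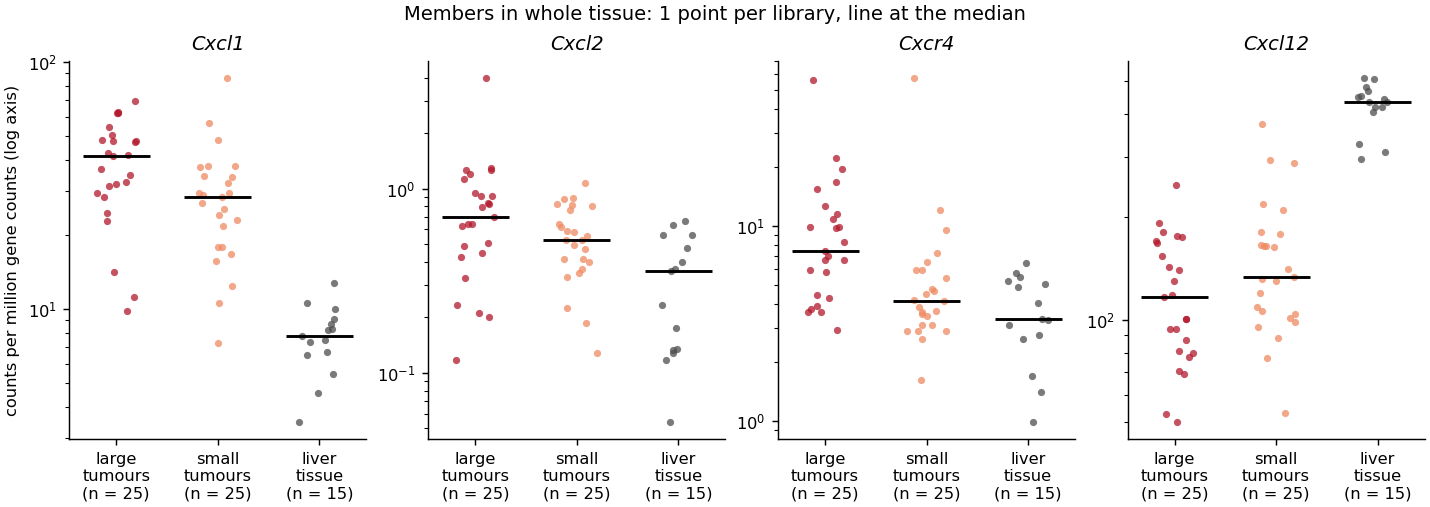
CPM (log axis) of *Cxcl1*, *Cxcl2*, *Cxcr4* and *Cxcl12* in each library of large tumours (n = 25), small tumours (n = 25) and liver tissue (n = 15). Points are libraries and bars are medians. The *Cxcl12* values of large tumours lie below those of liver tissue without overlap, and 1 library of each tumour size stands at over 56 CPM of *Cxcr4*.

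Between tumour sizes the differences of the tested members were smaller than their changes from liver tissue. In large against small tumours the log2 difference was 0.64 ± 0.27 for *Cxcr4* (adjusted p = 0.175), 0.60 ± 0.23 for *Cxcl2* (0.144), 0.37 ± 0.18 for *Cxcl1* (0.272) and -0.35 ± 0.14 for *Cxcl12* (0.165). None of the 4 passed edgeR's or DESeq2's test, where 2.48% of all genes passed edgeR's (0.929% higher and 1.55% lower). At an unadjusted p under 0.05 there were 3, with no share of all genes given at that threshold. Without small tumour 14, *Cxcr4* was higher in large tumours (1.15 ± 0.23, adjusted p = 0.00407), in a fit that kept large tumour 13 at 56.3 CPM. Under 9 other alternatives this difference ran from 0.265 to 0.862 and passed in 0 (adjusted p = 0.0518 to 0.769 with edgeR or DESeq2).

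Partners of the axis moved in large tumours against liver tissue as follows, where 38.5% of all tested genes rose and 32.1% fell. Against that share, counts such as 5 of 10 up, 4 of 15 up with 6 down and 5 of 14 up with 4 down are near or below the background. Of 6 tested genes for other ligands and binding partners, *Ackr3*, the scavenger receptor of CXCL12, rose by 2.01 ± 0.36, *Cd74* rose by 0.80 ± 0.21, and *Dpp4*, the protease that clips CXCL12, fell by 1.75 ± 0.16. Endothelial capture molecules rose in 6 of 9, led by E-selectin *Sele* (1.45 ± 0.21) and *Icam1* (0.98 ± 0.13). NF-kappa-B and chemokine decay genes rose in 5 of 10 (*Relb* 1.17 ± 0.14, *Nfkb2* 0.98 ± 0.09) and fell in 1 (*Nfkbia* -0.48 ± 0.06). Of 8 genes for other chemokines, 7 rose (*Ccl9* 1.39 ± 0.16, and *Cxcl9*, an interferon-induced attractant of T cells, 1.25 ± 0.28) and *Ccl6* was lower (-0.77 ± 0.18). Of the 10 cytokine and receptor genes upstream of ligand induction, 3 rose and 3 fell, led by the interleukin-1 receptor antagonist gene *Il1rn* (3.11 ± 0.27) and the interleukin-1 receptor gene *Il1r1* (-0.98 ± 0.16). Of 18 signalling genes 7 rose and 2 fell (*Grk3* 1.66 ± 0.12, *Rac2* -0.35 ± 0.13). Of 15 other chemoattractant receptors 4 rose and 6 fell (*Ccr3* 2.44 ± 0.40, *Fpr1* -1.84 ± 0.18), and of 14 adhesion genes 5 rose and 4 fell (*Itga6* 2.87 ± 0.25, *Itgal* -0.85 ± 0.15). Of 5 B cell genes 1 rose and 4 fell (*Cr2* 1.02 ± 0.45, *Ms4a1* -0.64 ± 0.28), and of 8 hepatocyte genes 4 rose and 4 fell (*Apoa1* 1.40 ± 0.12, *Cyp3a11* -2.01 ± 0.45). Of 6 immaturity genes the proliferation gene *Mki67* rose (1.80 ± 0.22) and 3 fell (*Cebpe* -1.64 ± 0.23), and of 3 platelet genes *Itga2b* fell (-0.39 ± 0.13). All 9 macrophage and Kupffer cell genes fell (*Marco* -4.87 ± 0.49), with a summed median of 512 CPM in large tumours, 649 CPM in small tumours and 1187 CPM in liver tissue.

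Over the 65 tissue libraries the 5 genes whose log2 CPM followed *Cxcl1* most closely were *Tmem176b* (Pearson's r = 0.917), *Tmem176a* (0.908), *Cd14* (0.898), *Mast2* (0.895) and *Tgfa* (0.888), and *Cxcl12* ran the other way (-0.772). These describe libraries that share the split between tumour and liver tissue, and carry no p.

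Liver neutrophils held less *Cxcr2* and *Cxcr1* mRNA than blood neutrophils of the same mouse under every treatment, and *Cxcr4* did not follow them. Of the 6 members that could be tested, 2 fell in liver under each treatment, and 3 rose (4 with CXCR2i). In the same comparisons 45.6%, 40.5%, 54.7% and 43.2% of 12831 genes passed in combination, CXCR2i, aPD1 and untreated mice. Of these 24.6%, 23.6%, 32.8% and 26.2% of all genes were higher in liver, and 21%, 16.8%, 21.9% and 17.1% were lower. The median log2 difference of all genes was 0.0586, 0.0907, 0.24 and 0.148.

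*Cxcr2* ranged from 503 to 1459 CPM with a median of 1097 CPM in liver and from 1952 to 2984 CPM with a median of 2502 CPM in blood of combination mice. With CXCR2i it ranged from 320 to 1635 CPM (median 1362) in liver and from 1450 to 3513 CPM (median 2736) in blood. In aPD1 mice, liver replicates 1 to 5 held 773, 385, 992, 89.3 and 1702 CPM and blood replicates held 2094, 2757, 2538, 2567 and 3244 CPM. In untreated mice it ranged from 123 to 1339 CPM (median 950) in liver and from 1706 to 3449 CPM (median 2522) in blood. The value was lower in liver in 8 of 8, 10 of 10, 5 of 5 and 6 of 6 animals, and liver and blood overlapped only with CXCR2i.

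The log2 difference of *Cxcr2*, liver minus blood, was -1.45 ± 0.35 with the combination (SE, adjusted p = 0.0011), -1.12 ± 0.31 with CXCR2i (0.00425), -2.45 ± 0.49 with aPD1 (0.000165) and -1.66 ± 0.42 in untreated mice (0.00224). Without the animals with mixed or shallow libraries the aPD1 and untreated differences were -1.30 ± 0.25 and -1.04 ± 0.25, and both still passed. Leaving out the animal of aPD1 liver replicate 4 alone gave -1.84. Genes of hepatocytes, endothelium and macrophages were higher in liver libraries under each treatment (values are given with the ligands), and their part in the receptor differences was not tested. With CXCR2i the call was lost without the libraries labelled isotype or vehicle (-1.15 ± 0.45, adjusted p = 0.0684) and without 1 set of runs (-0.97 ± 0.38, adjusted p = 0.0506). The liver minus blood difference of *Cxcr2* did not pass as different between treatments: relative to untreated mice it was 0.21 ± 0.54 with the combination (adjusted p = 0.903), 0.54 ± 0.52 with CXCR2i (0.677) and -0.79 ± 0.64 with aPD1 (0.778), where 2.43%, 0.561% and 0% of all genes passed.

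*Cxcr1*, the second receptor for Glu-Leu-Arg chemokines, was far below *Cxcr2*. It ranged from 0 to 29.6 CPM (median 17.0) in liver and from 29.7 to 81.3 CPM (median 60.96) in blood of combination mice, and from 5.51 to 34.6 CPM (median 18.6) and from 23.4 to 76.0 CPM (median 47.7) with CXCR2i. Liver and blood held 5.11, 5.19, 10.7, 1.59 and 34.6 CPM and 20.7, 43.4, 22.0, 18.9 and 54.6 CPM in aPD1 mice. In untreated mice the range was 1.48 to 19.2 CPM (median 8.03) in liver and 17.3 to 27.4 CPM (median 20.1) in blood. It was lower in liver in 8 of 8, 10 of 10, 5 of 5 and 5 of 6 animals of combination, CXCR2i, aPD1 and untreated mice. The log2 differences were -2.24 ± 0.43 (adjusted p = 0.000119), -1.35 ± 0.36 (0.00352), -2.27 ± 0.56 (0.00136) and -1.40 ± 0.50 (0.0249).

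The *Cxcr1* calls were less firm than those of *Cxcr2*. In untreated mice the call was lost without the animal block (-1.14, adjusted p = 0.0823), without the vehicle and isotype labels (-1.32, 0.0825), without mixed or shallow animals (-1.27, 0.143) and without the animal of liver replicate 2 (-1.04, 0.13), 3 (-1.28, 0.0701) or 4 (-1.19, 0.0801). In aPD1 mice it was lost without mixed or shallow animals (-1.20, adjusted p = 0.148), and with CXCR2i without the labels named above (-1.22, 0.0856).

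*Cxcr4* ranged from 201 to 720 CPM (median 391) in liver and from 168 to 795 CPM (median 378) in blood of combination mice, from 135 to 1335 CPM (median 576) and from 111 to 775 CPM (median 350) with CXCR2i, and from 104 to 1058 CPM (median 490) and from 368 to 664 CPM (median 481) in untreated mice. In aPD1 mice liver held 1081, 366, 954, 136 and 395 CPM and blood 534, 326, 504, 397 and 200 CPM. Liver and blood overlapped under every treatment, and the value was higher in liver in 3 of 8, 9 of 10, 4 of 5 and 3 of 6 animals of combination, CXCR2i, aPD1 and untreated mice. It passed only with CXCR2i, where it rose by 0.78 ± 0.29 (adjusted p = 0.0323). The differences were -0.16 ± 0.32 (adjusted p = 0.717) with the combination, 0.07 ± 0.43 (0.906) with aPD1 and -0.10 ± 0.39 (0.852) in untreated mice. Without animals with mixed or shallow libraries the aPD1 difference was 0.92 ± 0.35 (adjusted p = 0.0592), with liver higher in each of the 3 animals left. The sign in untreated mice turned with the scaling (0.04 ± 0.35 with DESeq2's size factors). The CXCR2i rise lost its call without any 1 of 6 animals (liver replicates 1, 2, 3, 4, 7 and 9; 0.67 to 0.79, adjusted p = 0.0523 to 0.078) and without the isotype labels (0.69 ± 0.41, adjusted p = 0.249).

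**Figure D3:**
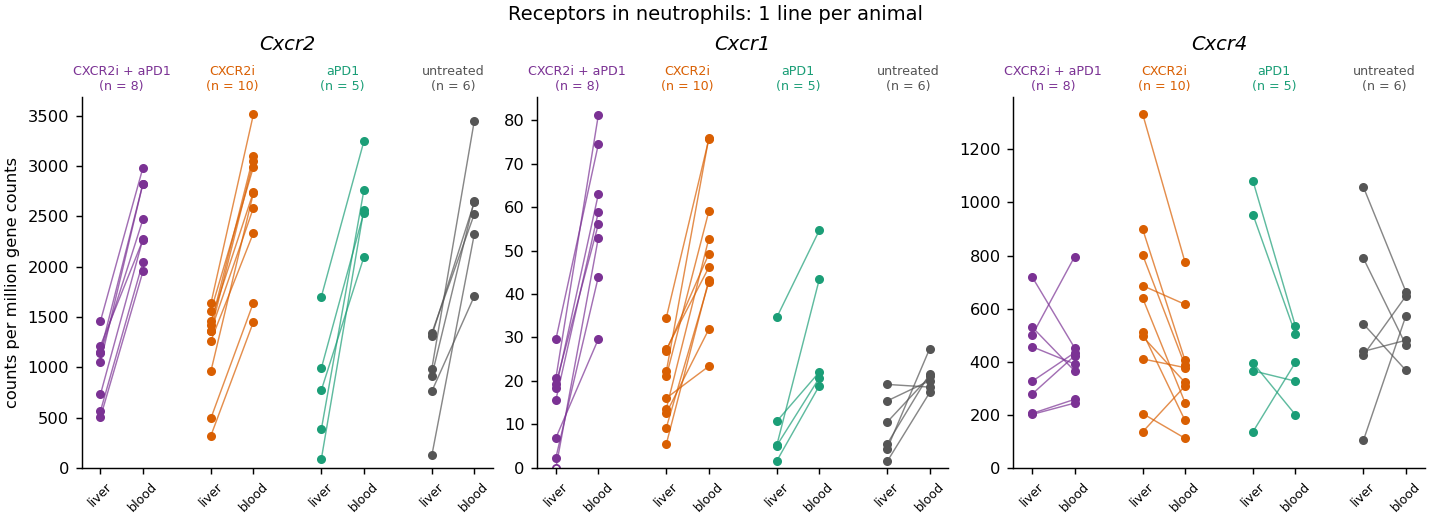
CPM of *Cxcr2*, *Cxcr1* and *Cxcr4* in liver and blood neutrophils, 1 line per animal, by treatment (8 combination, 10 CXCR2i, 5 aPD1 and 6 untreated animals). Every *Cxcr2* line runs lower in liver, all but 1 *Cxcr1* line does so, and *Cxcr4* lines run both ways.

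Other neutrophil genes did not share one direction. *Retnlg*, a resistin-like gene of neutrophils, differed by 0.75 (adjusted p = 0.112), 0.51 (0.267), -2.31 (0.000757) and -1.50 (0.0115), liver minus blood, in combination, CXCR2i, aPD1 and untreated mice, and the calprotectin gene *S100a8* by 0.22 (0.68), 0.12 (0.818), -2.32 (0.00111) and -1.44 (0.0212). The receptors were set against *Csf3r*, the gene of the G-CSF receptor, which is expressed on neutrophils throughout maturation, and *Cxcr2* also against these 2 genes. *Csf3r* had a median of 2601, 4254, 4607 and 5560 CPM in liver and 7088, 8131, 7791 and 7370 CPM in blood of combination, CXCR2i, aPD1 and untreated mice. Its log2 difference, liver minus blood, was -1.51 ± 0.37 (adjusted p = 0.00148), -0.99 ± 0.33 (0.0163), -1.89 ± 0.52 (0.00324) and -0.81 ± 0.44 (0.133). The median of *Cxcr2* counts per *Csf3r* count was 0.373, 0.314, 0.244 and 0.200 in liver of combination, CXCR2i, aPD1 and untreated mice and 0.369, 0.323, 0.354 and 0.347 in blood. The ratio was lower in liver in 4 of 8, 6 of 10, 5 of 5 and 6 of 6 animals. *Cxcr1* per *Csf3r* was lower in liver in 8 of 8, 8 of 10, 4 of 5 and 4 of 6 animals, so it did not follow *Cxcr2* in combination mice. *Cxcr4* per *Csf3r* was higher in liver in 8 of 8, 10 of 10, 5 of 5 and 5 of 6 animals.

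The mean log2 change of *Cxcr2* per *Csf3r*, liver minus blood, was 0.07 ± 0.49 with the combination, -0.13 ± 0.40 with CXCR2i, -0.57 ± 0.13 with aPD1 and -0.83 ± 0.33 in untreated mice (SD, n = 8, 10, 5 and 6 animals). The combination exceeded untreated by 0.90 (exact two-sided permutation p = 0.002, 0.006 adjusted over 3 comparisons) and CXCR2i exceeded it by 0.70 (exact permutation p = 0.00425, adjusted 0.00638). aPD1 exceeded it by 0.27 (exact permutation p = 0.126), which was 0.36 without the animal of untreated liver replicate 6 (exact permutation p = 0.00794). These permutations carry no run term. Within the run set of the untreated animals the combination exceeded untreated by 0.96 (exact permutation p = 0.00866, n = 5 and 6). That set held 1 of 10 CXCR2i animals (change -0.295, against a mean of -0.114 in the other 9) and no aPD1 animal, so no test within the set could be made for CXCR2i or aPD1, and for aPD1 treatment and run set cannot be told apart. Without mixed or shallow animals, which leaves 3 untreated ones, the differences were 0.89 for the combination (exact permutation p = 0.05) and 0.64 for CXCR2i (0.0559). The direction turned with the gene in the denominator. Per *Retnlg* count the change of *Cxcr2*, liver minus blood, was -2.20 ± 0.70 with the combination, -1.64 ± 1.26 with CXCR2i, -0.19 ± 0.45 with aPD1 and -0.22 ± 0.55 in untreated mice, so the combination minus untreated was -1.98 (exact permutation p = 0.000666, 0.00599 adjusted over all 9 comparisons of the 3 denominators) and CXCR2i minus untreated was -1.43 (0.0135, adjusted 0.0243). Per *S100a8* count the differences were -1.40 (exact permutation p = 0.00266, adjusted 0.00798) and -0.99 (0.0592, adjusted 0.0888). These tests were added after the values were seen. A ratio shows unequal change and not which gene moved: the fitted difference between treatments passed neither for *Cxcr2* (above) nor for *Csf3r* (-0.70 ± 0.58, adjusted p = 0.591, for the combination and -0.18 ± 0.55, 0.925, for CXCR2i), and it passed for *Retnlg* with the combination (2.25 ± 0.61, adjusted p = 0.04).

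*Cxcl2* was abundant in liver neutrophils and near absent from blood neutrophils, and *Cxcl3* and *Cxcl1* followed at lower levels. *Cxcl2* ranged from 447 to 3429 CPM (median 1106) in liver and from 1.67 to 47.7 CPM (median 6.75) in blood of combination mice, and from 837 to 3274 CPM (median 1897) and from 0.541 to 456 CPM (median 2.26) with CXCR2i. Liver and blood of aPD1 mice held 2374, 932, 5218, 165 and 3285 CPM and 1.69, 3.86, 5.39, 2.54 and 11.2 CPM. In untreated mice the range was 302 to 8255 CPM (median 3725) in liver and 3.01 to 19.7 CPM (median 5.28) in blood. It was higher in liver in all 29 animals, and no group of liver libraries overlapped with its blood group.

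The log2 difference of *Cxcl2* was 6.66 ± 1.08 with the combination (adjusted p = 1.93e-05), 8.26 ± 1.10 with CXCR2i (1.04e-06), 8.20 ± 1.42 with aPD1 (4.56e-05) and 8.91 ± 1.32 in untreated mice (1.03e-05). The ratio of summed counts was 121-fold (exact 95% counting interval 113 to 130), 28.7-fold (27.8 to 29.6), 435-fold (373 to 511) and 517-fold (459 to 585). In the CXCR2i ratio blood replicates 8 and 9, of one run set, held 185 and 456 CPM, far above the median of 2.26 CPM. The CXCR2i ratio was 36.9-fold without the animal of liver replicate 8 and 73.8-fold without that of replicate 9. Of its 3788 blood counts, 2733 were left without replicate 8 and 1327 without replicate 9, so most came from these 2 animals. No ratio without both was computed, so the CXCR2i ratio is not set against those of other treatments. The combination ratio was 195-fold without the animal of liver replicate 4 and 87.1-fold without that of replicate 5. It was 59.6-fold without those of replicates 5 and 7, which held 36925 of 61818 liver counts. With 1 animal left out the ratio ran from 302-fold to 540-fold in aPD1 mice and from 396-fold to 656-fold in untreated mice. Without animal blocks in the fit the CXCR2i difference was 4.63 ± 0.90.

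*Cxcl3* ranged from 0 to 23.4 CPM (median 10.7) in liver of combination mice, from 3.19 to 38.6 CPM (median 13.5) with CXCR2i, and from 8.33 to 1762 CPM (median 28.6) in untreated mice, and it was 20.8, 6.57, 183, 10.6 and 217 CPM in aPD1 mice. In blood no library passed 1.11 CPM, and 21 of 32 held no count. The ratio of summed counts in the paired animals was 374 (103 to 3100) with the combination, 71.2 (41.4 to 134) with CXCR2i, 1350 (375 to 11200) with aPD1 and 4540 (1550 to 22000) in untreated mice, against 2, 13, 2 and 3 counts in blood. The test passed under each treatment (adjusted p = 8.68e-09, 1.16e-10, 2.16e-09 and 3.14e-11), with a fitted fold that depends on few blood counts. The ratio depends on few liver libraries too. In untreated mice replicates 3 and 4 held 5420 and 3383 of 9185 liver counts, and the ratio was 1760 without the animal of replicate 3, 6980 without that of replicate 2 and 252 (69.2 to 2090) without those of replicates 3 and 4. In aPD1 mice replicates 3 and 5 held 2069 of 2250 liver counts. There the ratio ran from 659 to 2640 with 1 animal left out, lowest without replicate 5 and highest without replicate 2, was 800 and 2540 without replicates 3 and 1, and was 108 (29.6 to 901) without replicates 3 and 5. With CXCR2i it was 108 without the animal of replicate 9. With the combination both blood counts came from the animal of liver replicate 4, which held no liver count, and without it liver was at least 229-fold higher over a floor of 3 counts.

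*Cxcl1*, the leading ligand gene of tissue, was a minor one in neutrophils. It ranged from 0 to 12.1 CPM (median 2.09) in liver of combination mice, from 1.22 to 12.5 CPM (median 5.73) with CXCR2i and from 1.48 to 22.5 CPM (median 5.27) in untreated mice, and it was 7.66, 4.73, 8.90, 3.04 and 4.47 CPM with aPD1. In blood 31 of 32 libraries held none. Against a floor of 3 counts over the group, liver neutrophils were at least 72.2-fold, 57.8-fold and 81.1-fold higher in combination, aPD1 and untreated mice, and with CXCR2i the ratio was 103 (34.9 to 504) over 3 blood counts. The bound was 39.3-fold without combination liver replicate 5 and 44-fold without untreated liver replicate 4. Without the 2 animals of most liver counts it was 22.7-fold, 27.0-fold and 38.1-fold in combination, aPD1 and untreated mice. With CXCR2i the ratio was then 61.7 (20.7 to 303). *Cxcl1* was higher in liver in 5 of 8, 10 of 10, 5 of 5 and 6 of 6 animals of combination, CXCR2i, aPD1 and untreated mice, and lower in none. Of all counts of the 4 ligand genes in liver neutrophils *Cxcl2* held 98.9%, 98.9%, 96.0% and 91.0% in combination, CXCR2i, aPD1 and untreated mice. These shares are of counts with no correction for gene length. Per kb the means of *Cxcl2* and *Cxcl3* in untreated liver neutrophils were 2350 and 479 CPM. *Cxcl5* and *Cxcl12* were too low to be tested. *Cxcl5* was at 0 in all CXCR2i and untreated liver libraries and reached 5.65 CPM in aPD1 liver replicate 2, and *Cxcl12* reached 9.84 CPM in aPD1 liver replicate 4. Intervals and floors cover counting error only.

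**Figure D4:**
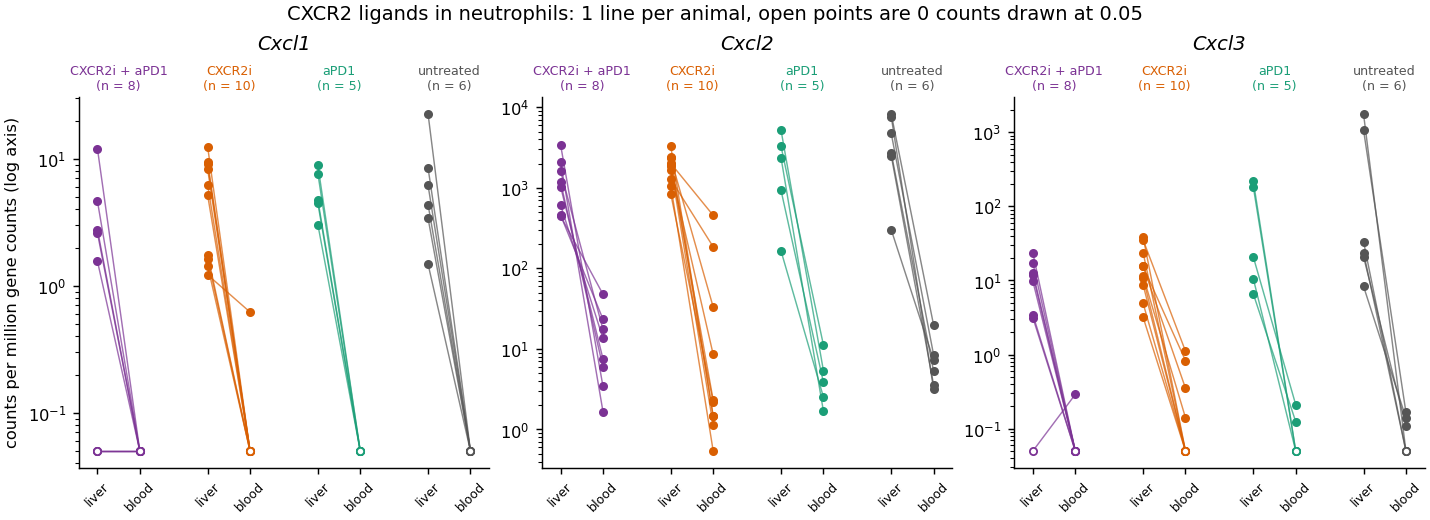
CPM (log axis) of *Cxcl1*, *Cxcl2* and *Cxcl3* in liver and blood neutrophils, 1 line per animal, by treatment (8 combination, 10 CXCR2i, 5 aPD1 and 6 untreated animals). Open points hold 0 counts and are drawn at 0.05. *Cxcl2* is higher in liver in every animal, and 2 untreated liver libraries stand at 1073 and 1762 CPM of *Cxcl3*.

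Other cells were present beside this difference. Hepatocyte genes rose in liver against blood in 7 of 7 tested, endothelial genes in 8 of 8 and macrophage genes in 7 of 8 under each treatment, against 24.6%, 23.6%, 32.8% and 26.2% of all tested genes in combination, CXCR2i, aPD1 and untreated mice. In untreated mice T and NK cell genes rose in 7 of 8, B cell genes in 6 of 6, endothelial capture genes in 4 of 9 and stellate cell genes in 2 of 3, and T and NK cell genes rose in 1, 0 and 5 of 8 in combination, CXCR2i and aPD1 mice. The summed median of 9 macrophage and Kupffer cell genes was 518, 172, 1205 and 254 CPM in liver and 67.0, 73.9, 88.4 and 101 CPM in blood of combination, CXCR2i, aPD1 and untreated mice. That of 8 hepatocyte genes was 111, 64.0, 134 and 276 CPM in liver and at most 1.81 CPM in blood. Without animals with mixed or shallow libraries *Cxcl2* rose by 6.89 ± 1.23, 8.03 ± 1.13, 9.32 ± 1.94 and 9.80 ± 1.96. Those libraries were set apart by *Cd3e* or depth, so these values do not bear on hepatocyte, endothelial or macrophage RNA. The part of other cells in the differences of *Cxcl1*, *Cxcl2* and *Cxcl3* was not tested.

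The lists around the axis moved in untreated mice, liver against blood, as follows, where 26.2% of all tested genes rose and 17.1% fell. NF-kappa-B and chemokine decay genes rose in 9 of 10, led by the feedback genes *Tnfaip3* (4.31 ± 0.59) and *Nfkbia* (3.54 ± 0.57), and in 7, 9 and 6 of 10 in combination, CXCR2i and aPD1 mice. Other chemokines rose in 7 of 8 (*Cxcl16* 9.44 ± 0.89, *Ccl3* 6.54 ± 0.95). Of 11 upstream cytokine and receptor genes 5 rose and 3 fell (*Il1a* 10.19 ± 0.59, *Il23a* 6.47 ± 0.96, the adaptor *Myd88* -1.24 ± 0.29). Of 15 other chemoattractant receptors 5 rose and 4 fell, among them *Ccrl2* (6.86 ± 1.00), *C5ar2* (-1.54 ± 0.28) and the formyl peptide receptor *Fpr1* (-1.25 ± 0.37), counts that lie not far above the background. Genes of receptor signalling and desensitization fell in 14 of 19 and rose in 1 (*Rgs2* -2.02 ± 0.26, the receptor kinase *Grk3* 3.79 ± 0.80), and fell in 6, 6 and 17 of 19 in combination, CXCR2i and aPD1 mice. Adhesion and rolling genes fell in 9 of 15 and none rose (*Fut7*, the enzyme for selectin ligands, -2.03 ± 0.45, and *Itga6* -1.77 ± 0.54). Neutrophil identity genes rose in 1 of 9 and fell in 4 (*Il1r2* 2.73 ± 0.54, *Mmp9* -1.64 ± 0.42), and immaturity genes rose in 6 of 9 (*Mki67* 2.87 ± 0.50, *Fcnb* 2.83 ± 0.86). *Ppbp*, a CXCR2 ligand of platelets, fell by 5.09 ± 0.74 along with all 5 tested platelet genes.

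Over the 61 neutrophil libraries the genes most like *Cxcr2* in log2 CPM were *Tmem154* (r = 0.953), *Cebpd* (0.951), *Klra17* (0.948), *Stfa2l1* (0.944) and *Gcnt2* (0.943), with *Cxcr1* at 0.796 and *Cxcr4* at 0.282. Those most like *Cxcl2* were *Plk3* (0.967), *Ccrl2* and *Osm* (0.963 each), *Ifrd1* (0.960) and *Nr4a3* (0.949), with *Cxcl3* at 0.858 and *Cxcr2* at -0.611. The libraries fall into liver and blood clusters, so these values mostly describe that split and carry no p.

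Among liver neutrophils *Cxcl3* was the only member to pass edgeR's test between treatments, and it was lower with the combination. Values are those given above: all 8 combination libraries lay at or below 23.4 CPM, and untreated replicates 1 to 6 held 33.4, 8.33, 1762, 1073, 23.8 and 20.9 CPM. The 2 groups overlapped, and the mean of untreated mice was set by replicates 3 and 4. No fit without both of these was run. The log2 difference, combination minus untreated, was -5.92 ± 1.37 (adjusted p = 0.00842), where 10.8% of 11945 genes passed (5.66% higher and 5.12% lower). It was 1 of 6 members tested. At an unadjusted p under 0.05 there were 4, with no share of all genes given at that threshold. The difference was -4.79 without untreated replicate 3, -6.04 ± 1.68 within the shared run set (adjusted p = 0.0756) and -6.32 ± 1.30 without mixed or shallow libraries (0.00369).

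*Cxcl2* differed by -1.98 ± 0.76 between combination and untreated liver neutrophils (adjusted p = 0.0865), *Cxcl1* by -1.61 ± 0.76 (0.167), *Cxcr4* by -1.10 ± 0.51 (0.152), *Cxcr2* by -0.21 ± 0.55 (0.846) and *Cxcr1* by 0.06 ± 0.72 (0.969; -0.01 with DESeq2's size factors). The *Cxcl2* difference passed with DESeq2 (-2.02, adjusted p = 0.0175), without mixed or shallow libraries (-2.25, 0.0102), without untreated liver replicate 2 (-2.23, 0.0356) and without combination liver replicate 5 (-2.70, 0.0332), which held the highest *Cxcl2* of its group. Without the last, *Cxcl1* passed too (-3.69 ± 0.77, adjusted p = 0.00399). Without mixed or shallow libraries *Cxcr4* passed (-1.42, adjusted p = 0.0132). The difference of *Cxcr2*, the target of the inhibitor, was smaller than its standard error.

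With CXCR2i against untreated, no member passed edgeR's test in liver neutrophils, where 0.142% of genes did (0.109% higher and 0.0335% lower). *Cxcl3* differed by -5.68 ± 1.64 (adjusted p = 0.124), the 1 member with an unadjusted p under 0.05, and passed with DESeq2 (-5.79, adjusted p = 0.011) and without a run term (-4.87, 0.00413). With aPD1 against untreated none passed in edgeR or DESeq2, none had an unadjusted p under 0.05, and 0 of 11945 genes passed (38 without a run term, where treatment and run cannot be told apart). *Cxcl3* differed by -3.23 ± 1.65 (adjusted p = 0.766) and *Cxcr2* by -0.82 ± 0.79 (0.796). Against aPD1, no member passed with the combination (0.444% of genes; 1 member with an unadjusted p under 0.05) or with CXCR2i (0% of genes; none). *Cxcl3* also gave the only passing difference between treatments in liver minus blood: CXCR2i minus untreated was -5.79 ± 1.33 (adjusted p = 0.0421), where 0.561% of genes passed (0.101% lower). It rests on 13 and 3 blood counts, did not pass with DESeq2 (-2.83, 0.303), and lost its call without 9 of the 16 animals (-5.84 to -4.34 without 8 of them and -6.42 without the animal of untreated liver replicate 2; adjusted p = 0.0561 to 0.16). Those 9 were the animals of untreated liver replicates 2, 3, 4 and 5 and of CXCR2i liver replicates 1, 6, 8, 9 and 10.

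**Figure D5:**
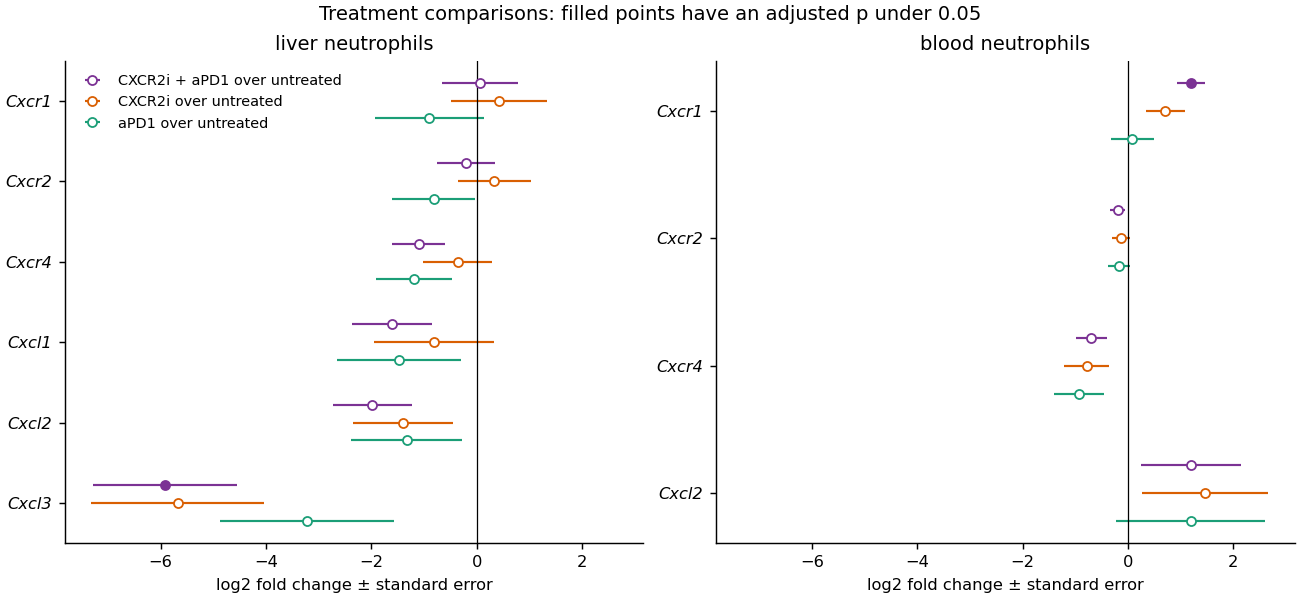
Log2 fold change with its standard error of each tested member with the combination, CXCR2i or aPD1 over untreated, in liver neutrophils (left) and blood neutrophils (right). Filled points have an adjusted p under 0.05: *Cxcl3* with the combination in liver (-5.92) and *Cxcr1* with the combination in blood (1.21).

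Genes around the axis moved with the combination in liver neutrophils, where 5.66% of all tested genes rose and 5.12% fell. Counts of 1 in 15 or 1 in 19 are near that share. Markers of immature neutrophils rose in 7 of 9 tested, led by the granule protein genes *Camp* (5.04 ± 0.92) and *Ltf* (4.79 ± 0.88), and 10 such genes summed to a median of 26340 CPM with the combination, 13440 CPM with CXCR2i, 877 CPM with aPD1 and 660 CPM in untreated mice. Neutrophil identity genes rose in 3 of 9 (*Cd177* 3.80 ± 0.70, *Ly6g* 3.17 ± 0.72). Of 11 upstream genes 3 fell (*Il1a* -3.91 ± 0.88, *Il23a* -3.56 ± 0.91), and of 8 other chemokines 2 fell (*Ccl3* -3.07 ± 0.81, *Ccl4* -2.94 ± 0.73). NF-kappa-B and decay genes fell in 2 of 10 (*Relb* -1.23 ± 0.40, *Nfkb2* -1.04 ± 0.34). Of 15 chemoattractant receptors the leukotriene receptor *Ltb4r1* rose (2.00 ± 0.53) and *Ccrl2* fell (-2.10 ± 0.63). Of 19 signalling genes *Grk6* rose (0.78 ± 0.23), and of 15 adhesion genes 3 rose (*Itgb2l* 3.96 ± 0.78, *Cd47* 1.10 ± 0.26). All 6 B cell genes fell (*Cr2* -6.45 ± 1.24), with a summed median of 2.51 CPM with the combination and 28.95 CPM in untreated mice, as did 2 of 8 endothelial genes (*Kdr* -2.98 ± 0.84) and 1 of 8 capture genes (*Icam1* -2.34 ± 0.54). No tested hepatocyte, macrophage, stellate cell, T or platelet gene passed. Their part in the *Cxcl3* difference was not tested.

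In blood neutrophils *Cxcr1* was the only member to pass edgeR's test between treatments, and it rose with the combination. The 10 combination libraries held 29.7 to 81.3 CPM (mean 59.2 ± 14.8) and the 7 untreated ones 17.3 to 27.4 CPM (mean 20.6 ± 3.37, SD), with no overlap. The log2 difference was 1.21 ± 0.27 (adjusted p = 0.00261), where 14.9% of 10217 genes passed (6.57% higher and 8.38% lower). It was 1.32 ± 0.21 within the run set of untreated mice (adjusted p = 0.00164), and it passed under every alternative run and with each replicate left out (1.06 to 1.31). With CXCR2i the values were 23.4 to 76.0 CPM and the difference 0.71 ± 0.36 (adjusted p = 0.242), which passed only without a run term (1.18 ± 0.25, 0.00227). In aPD1 blood *Cxcr1* was 20.7, 43.4, 22.0, 18.9 and 54.6 CPM, a difference of 0.08 ± 0.41 from untreated (adjusted p = 0.987). The combination differed from aPD1 by 1.12 ± 0.33 (adjusted p = 0.161), which passed with DESeq2 (0.0443) and without aPD1 blood replicate 5 (1.42 ± 0.32, adjusted p = 0.037).

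No other receptor passed in blood. *Cxcr2* differed from untreated by -0.19 ± 0.14 with the combination (adjusted p = 0.392), -0.13 ± 0.18 with CXCR2i (0.689) and -0.16 ± 0.21 with aPD1 (0.915). *Cxcr4* differed by -0.70 ± 0.30 (0.113), -0.79 ± 0.42 (0.269) and -0.93 ± 0.47 (0.676). The combination passed for *Cxcr4* without its replicate 7, which held 795 CPM (-1.001 ± 0.272, adjusted p = 0.0121). With CXCR2i no member passed in edgeR or DESeq2 and none had an unadjusted p under 0.05, against 6.9% of genes that passed (3.05% higher and 3.85% lower). With aPD1 no member and 0 of 10217 genes passed, and no member had an unadjusted p under 0.05. Against aPD1, no member passed with the combination (0.0196% of genes, 1 member with an unadjusted p under 0.05) or with CXCR2i (1.05% of genes, of which 0.343% higher and 0.705% lower, and 1 such member).

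Around the axis in blood, where 6.57% of all tested genes rose and 8.38% fell with the combination, signalling and desensitization genes fell in 9 of 19 and none rose (the arrestin *Arrb1* -1.06 ± 0.17, the receptor kinase *Grk5* -1.04 ± 0.19). Chemoattractant receptors fell in 3 of 12 (the platelet-activating factor receptor *Ptafr* -0.89 ± 0.12, *C5ar1* -0.50 ± 0.15). *Mif*, a cytokine that also binds CXCR2 and CXCR4, rose by 1.69 ± 0.42. Adhesion genes fell in 3 of 15 and rose in 1 (*Fut7* -0.998 ± 0.221, *Itgb2l* 2.11 ± 0.56). Immaturity genes rose in 5 of 7 (*Ltf* 4.51 ± 0.74, *Camp* 4.33 ± 0.76), with a summed median of 3595 CPM with the combination, 1426 CPM with CXCR2i, 166 CPM with aPD1 and 102 CPM in untreated mice. NF-kappa-B genes passed in 0 of 10 with edgeR, upstream genes fell in 3 of 8 (*Tnf* -0.98 ± 0.25, *Il1rn* -0.73 ± 0.20), and identity genes fell in 2 of 9 (*Mmp9* -0.61 ± 0.17, *Csf3r* -0.26 ± 0.09). Whether the rise of *Cxcr1* goes with that of these genes within a group was not tested.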

How the data were processed

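The authors deposited 1 table of raw counts per gene for 199 libraries, of which the 126 of whole tissue and sorted neutrophils were used. The 73 T cell libraries were not analysed here. Per the labels' protocols, tissue RNA was made into TruSeq stranded mRNA libraries and RNA of sorted Ly6G+ cells into SMARTer Stranded Total RNA Pico libraries, both sequenced as paired ends. Per the submitters' processing notes the tools were FastQC 0.11.8, Trim Galore 0.6.4, HISAT2 2.1.0 and HTSeq 0.11.2 on GRCm38. The strand setting and annotation release are not given in the sources used here. The 5 HTSeq summary entries, which held 63.2% of all counts in the table, were left out. Median reads aligned to more than one place were 11.3% in neutrophils and 49.6% in tissue, so tissue and sorted cells were not tested against each other.

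Counts were tested with edgeR 4.0.16 in R 4.3.3 (quasi-likelihood test, TMM factors, filterByExpr, Benjamini-Hochberg adjustment over all genes tested, threshold 0.05). The SE of a log2 difference is its size divided by the root of the F statistic. The 65 tissue libraries were fitted with sequencing run as a term, the 29 liver and the 32 blood neutrophil libraries with run set as a term, and the 58 libraries of 29 animals with the animal as a block and site by treatment. CPM is per 1000000 gene counts. CPM per kb uses the GENCODE vM21 exon union. A fold against 0 counts uses a floor of 3 counts over the group. Every adjusted p in the text is from edgeR unless DESeq2 (1.42.0) or an exact permutation test is named. Shares of all genes are given at the adjusted threshold only. Counts of members at an unadjusted p under 0.05 therefore have no background share beside them. Figures were drawn with matplotlib 3.10.9.

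Animals pair liver with blood because the labels name the animal. Deviations from group means correlated by 0.0897 on average within animals and -0.0017 between animals, and by over 0.1 in 15 of 29 pairs. Over 924 pairs of libraries of 1 group the chi-square of their counts was at least 2.91 times its degrees of freedom, so none was counted as a copy.

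The text names the 8 members and, of every other gene list, up to 2 called genes with the largest change in each direction, or the gene of smallest p where none was called. Some genes that this rule would name are not reported here. Genes most like a member are the 5 of highest Pearson correlation of log2(CPM + 1) among genes averaging at least 10 CPM. The members and lists were chosen with earlier results of these data known. Alternatives were DESeq2, its size factors, no filter, other run or block terms, and libraries without vehicle or isotype labels. In neutrophils each replicate or animal was left out in turn. In tissue each run was left out in turn, and the only single libraries left out alone were small tumour 14 and large tumour 13. Leaving out mixed, shallow, neutrophil-rich or extreme libraries, and the tests per *Csf3r*, *Retnlg* or *S100a8* count, were added after the data were seen. So was leaving out single animals, or the 2 of most liver counts, for the ratios of summed counts.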

Additional observations from a re-analysis of the deposited data

Results flagged for a closer look

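Dixon's test assumes normally distributed values, which CPM need not be, so no chance rate is given for it. In 10 of 44 member-by-group sets of 4 to 10 libraries, the highest library stood apart by this test. In liver neutrophils these were *Cxcr1* in aPD1 replicate 5 (34.6 CPM, next 10.7), *Cxcl1* in combination replicate 5 (12 CPM, next 4.65) and in untreated replicate 4 (22.5 CPM, next 8.45), *Cxcl5* in aPD1 replicate 2 (5.65 CPM, next 0.434) and *Cxcl12* in CXCR2i replicate 1 (2.44 CPM, next 0.446). In blood neutrophils these were *Cxcr4* in combination replicate 7 (795 CPM, next 452), *Cxcl2* in combination replicate 6 (47.7 CPM, next 23.4), in CXCR2i replicate 9 (456 CPM, next 185) and in untreated replicate 4 (19.7 CPM, next 8.42), and *Cxcr1* in untreated replicate 5 (27.4 CPM, next 21.6).

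The liver minus blood difference of *Cxcl3* was smaller with CXCR2i than in untreated mice (-5.79 on the log2 scale, adjusted p = 0.0421 with edgeR), a call that held in 2 of 8 alternatives (highest adjusted p = 0.303) and was lost without any 1 of 9 of the 16 animals. The per-animal change of *Cxcr2* per *Csf3r* from blood to liver was higher than in untreated mice by 0.898 with the combination and by 0.699 with CXCR2i (exact permutation p = 0.002 and 0.00425, with no run term; 9 of 10 CXCR2i animals were sequenced in other run sets than the untreated ones). Both turned to negative differences when *Retnlg* or *S100a8* counts replaced *Csf3r* counts.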

How the results depend on the processing

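Only the ratio of *Cxcr2* to a neutrophil gene turned its sign while called: liver minus blood, relative to untreated mice, it was -1.98 per *Retnlg* and -1.40 per *S100a8* with the combination and -1.43 and -0.99 with CXCR2i, where it was positive per *Csf3r*. The value of -0.99 did not itself pass (exact permutation p = 0.0592, adjusted 0.0888). Of the members' own values under alternatives other than left-out replicates 784 kept their direction and side of the threshold, 19 lost and 8 gained a call, and 47 uncalled values changed sign. The number of members called moved as follows. For the combination against untreated liver neutrophils (1) it was 2 with DESeq2, 0 within the shared run set, 0 with the title number as replicate block, 3 without shallow or mixed libraries and 1 to 3 with a replicate left out. For CXCR2i against untreated it was 1 in liver with DESeq2 and 1 without a run term (0 otherwise), and 1 in blood without a run term. In blood, combination against aPD1 gave 1 with DESeq2 and 0 to 1 with a replicate left out, and combination against untreated gave 1 to 2. Liver against blood with CXCR2i gave 3 without vehicle or isotype labels, 5 with the title number as block or without 1 run set, and 5 to 6 with an animal left out (6 otherwise). In untreated mice it gave 4 in place of 5 without animal blocks, without those labels or without shallow or mixed animals, and 4 to 5 with an animal left out. In aPD1 mice it gave 4 in place of 5 without shallow or mixed animals (6 with no filter, as with the combination). Small tumours against liver tissue gave 3 in place of 4 without tissue run 2 or with the block (5 with no filter). This comparison gave 3 to 4 without small tumour 14 or large tumour 13, the only single tissue libraries left out. The difference between CXCR2i and untreated mice in liver minus blood (1) fell to 0 with DESeq2, with no replicate block, with the title number as replicate block, without those labels, without shallow or mixed animals, without 1 run set, and to 0 to 1 with an animal left out. The same difference for the combination gave 1 with no filter (*Cxcl2* -2.22, adjusted p = 0.000275 with edgeR). Large against small tumours gave 1 without small tumour 14. The cause of these moves was not tested.

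Libraries of the same title number in different groups correlated by 0.0476 in tissue, 0.0369 in liver and -0.00803 in blood. Those of other numbers correlated by -0.00219, -0.0029 and 0.00234. The value was over 0.1 in 21 of 55, 17 of 35 and 11 of 39 same-numbered pairs. Tissue labels name no animal, so these values cannot show whether title numbers pair tissue libraries. With title numbers as a block *Cxcr4* in small tumours was 0.58 (adjusted p = 0.151) and *Cxcl3* with the combination in liver was -5.44 (0.0593). *Cxcr4* with CXCR2i, liver against blood, was 0.78 (0.0599), all from edgeR. Of all genes, 1288 passed for the combination against untreated liver neutrophils, 2176 with DESeq2, 2176 without shallow or mixed libraries, 307 within the shared run set and 736 with the block. For blood 1527 passed, 789 without vehicle or isotype labels, 973 with no filter and 993 within the run set. For liver against blood 5192 passed with CXCR2i (2454 without those labels), 7016 with aPD1 and 5545 in untreated mice (2990 and 3449 without shallow or mixed animals). Counts over all genes moved furthest for comparisons with few calls. CXCR2i against untreated gave 17 in liver (326 with DESeq2, 29 with no filter, 645 without a run term, 0 with the block, 1 without vehicle or isotype labels) and 705 in blood (1770 with no filter, 1185 without a run term, 91 without those labels). Combination against aPD1 gave 53 in liver (0 to 654, most without a run term) and 2 in blood (0 to 498), and CXCR2i against aPD1 gave 107 in blood (0 to 398). Large against small tumours gave 360 genes (570 with DESeq2, 123 with the block, 15, 75 and 157 without tissue run 1, 2 and 3). The 2 shallow libraries held 580113 and 950488 gene counts, which limits *Cxcl1*, *Cxcl3*, *Cxcl5* and *Cxcl12* there.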
